A study of Mus musculus with 6 samples.

Results

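The Gimap GTPases (GTPases of immunity-associated proteins) of the mouse were followed in CD4 T cells that had lost the transcription factor Foxo1. The genes were taken by symbol from the deposited expression tables, and all 8 of the listed genes were found there, among 55487 genes in all: Gimap1, Gimap3, Gimap4, Gimap5, Gimap6, Gimap7, Gimap8 and Gimap9. Foxo1TKO mice carry floxed Foxo1 alleles and a Cre driven by CD4, so that the gene is recombined in thymocytes at the double-positive stage and both CD4 and CD8 T cells lack it. Foxo1Ctrl mice carry the floxed alleles without Cre. Both are C57BL/6 mice with a Foxp3-GFP reporter, and the young adult mice of the study were 3 months old unless otherwise stated. Naive CD4 T cells (CD4N cells) of lymph nodes were cultured for 4 days with anti-CD3 antibody (0.1 µg/ml) and 250000 splenocytes of CD3εKO mice (mice without T cells), and bulk RNA was sequenced from 3 Foxo1TKO and 3 Foxo1Ctrl cultures. The labels give 50000 T cells per culture and the methods another number. The sources used here do not say whether the splenocytes were removed before RNA extraction, nor whether the libraries of a genotype came from separate mice, so the p-values below measure only the spread between these libraries, which may be technical.

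Gimap proteins share a GTP-binding domain named after the plant gene AIG1, and several of them sit on the membranes of intracellular organelles. They are found mostly in lymphocytes, where they are known for keeping resting cells alive: loss of Gimap5 causes a severe lack of T cells in rats and mice, and Gimap1 is required for mature T and B cells to persist. Foxo1 is the transcription factor that keeps naive T cells in circulation and at rest, in part by sustaining the receptor for IL-7, and antigen receptor signals move it out of the nucleus.

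The 8 genes lie side by side on chromosome 6, from base 48647234 (the start of Gimap8) to base 48770851 (the end of Gimap3) of GRCm38, a stretch of 123618 bases. In order along the chromosome they are Gimap8, Gimap9, Gimap4, Gimap6, Gimap7, Gimap1, Gimap5 and Gimap3. Gimap6 and Gimap3 are read from the minus strand and the others from the plus strand. Other transcripts lie among them. Gimap1os, a noncoding gene on the opposite strand, covers 36.0% of the exon bases of Gimap1. Gm28053 is annotated as a coding gene that starts at Gimap7 and runs through Gimap1 into Gimap5, sharing 81 exon bases with Gimap7, 198 with Gimap1 and 153 with Gimap5.

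Because the compared cells differ in a transcription factor, the promoters of the members were read for the letters that Foxo factors prefer, GTAAACA, and for the shorter core TAAACA, on both strands (each GTAAACA also holds a TAAACA). RefSeq gives 9 promoters for the 8 members on GRCm38.p6, as windows of 250 bases before to 50 after the start of transcription. GTAAACA was found in 1 of the 9, that of Gimap3, and in 3.65% of all 32851 RefSeq promoters. TAAACA was found in 2 of the 9, those of Gimap3 and Gimap4, and in 13.4% of all promoters. The promoters of Gimap3 and Gimap4 are shown because they hold these letters, and that of Gimap7 because this gene had the largest change of the family and its window holds neither. Each runs from 250 bases before the start of transcription to its first base (position 0), in the direction of the gene, with the letters found in capitals. They span chr6:48770851-48771101 (minus strand) for Gimap3, chr6:48684328-48684578 (plus strand) for Gimap4 and chr6:48718371-48718621 (plus strand) for Gimap7.
Gimap3: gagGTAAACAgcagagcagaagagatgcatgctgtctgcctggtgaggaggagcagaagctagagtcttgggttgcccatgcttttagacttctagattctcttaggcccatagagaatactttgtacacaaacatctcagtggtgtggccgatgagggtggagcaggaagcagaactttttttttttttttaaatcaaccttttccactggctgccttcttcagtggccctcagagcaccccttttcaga
Gimap4: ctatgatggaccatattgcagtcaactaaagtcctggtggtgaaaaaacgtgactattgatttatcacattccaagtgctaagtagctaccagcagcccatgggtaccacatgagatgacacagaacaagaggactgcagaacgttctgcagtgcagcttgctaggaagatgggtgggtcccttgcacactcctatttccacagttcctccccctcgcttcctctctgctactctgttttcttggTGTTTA
Gimap7: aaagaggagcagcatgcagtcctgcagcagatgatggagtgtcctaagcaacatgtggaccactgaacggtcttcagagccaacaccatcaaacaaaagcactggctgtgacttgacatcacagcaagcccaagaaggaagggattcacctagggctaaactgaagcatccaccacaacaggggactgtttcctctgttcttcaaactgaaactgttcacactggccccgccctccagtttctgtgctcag
In Gimap3 the letters lie at positions -247 to -241 on the strand of the gene, and in Gimap4 at positions -5 to 0 on the other strand. A match of letters is a description of the sequence and not a binding site.

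Library totals ran from 14783890 to 19675447 expected counts. RSEM, which counted the reads, gives expected counts, because a read that fits several genes is shared between them. The 8 members took between 75843 and 199715 of these counts per library, and the lowest count of any member in any library was 883, for Gimap8, so that counting error is small beside the spread between libraries. Values below are counts normalized by the TMM method, which scales the libraries to each other, unless they are given as TPM (a share of all transcripts that divides by gene length and allows genes to be compared with each other). The comparison of the genotypes used the quasi-likelihood test of edgeR on 13691 genes, those that reached 10 counts in 3 libraries or more. All 8 members passed this filter. A gene was called different when its p, after Benjamini-Hochberg adjustment across these genes, was under 0.05 and its fold change over 1.5. Foxo1 itself had 85.4, 46.5 and 115 normalized counts in the Foxo1TKO libraries and 1529, 2285 and 1598 in the Foxo1Ctrl libraries, so each library fits the genotype on its label. One library of each genotype stood apart. Between Foxo1TKO 1 and the other two Foxo1TKO libraries the chi-square of the counts per degree of freedom was 50.6 and 83.4, against 16.4 between the other two, and between Foxo1Ctrl 2 and the other two Foxo1Ctrl libraries it was 90.3 and 87.7, against 13.5. Results without these 2 libraries are given after the members.

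The family as a whole was less abundant in Foxo1TKO cells. The TPM of the 8 members summed to 3722, 3960 and 3611 in the Foxo1TKO libraries and to 9291, 8914 and 9174 in the Foxo1Ctrl libraries, which is 0.376% ± 0.0178 (SD, n = 3) against 0.913% ± 0.0193 (SD, n = 3) of all transcripts counted. The genotypes were far from overlapping in this sum, and the mean was 2.42-fold lower in Foxo1TKO cells. In bulk RNA, fewer cells that express a gene and less RNA per cell cannot be told apart.

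Of the 8 members, 6 were called lower in Foxo1TKO cells (Gimap3, Gimap4, Gimap5, Gimap6, Gimap7 and Gimap8) and 0 higher by edgeR's quasi-likelihood test, 0 at an unadjusted p under 0.05 and 0 by DESeq2 or limma-voom. Among all genes tested, 11.8% were called lower and 11.1% higher. In 7 of the 8 members every Foxo1TKO library lay below every Foxo1Ctrl library, which was so for 21.2% of all genes tested. The median log2 fold change of the members was -1.20, and that of all genes tested was 0.011.

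**Figure D1:**
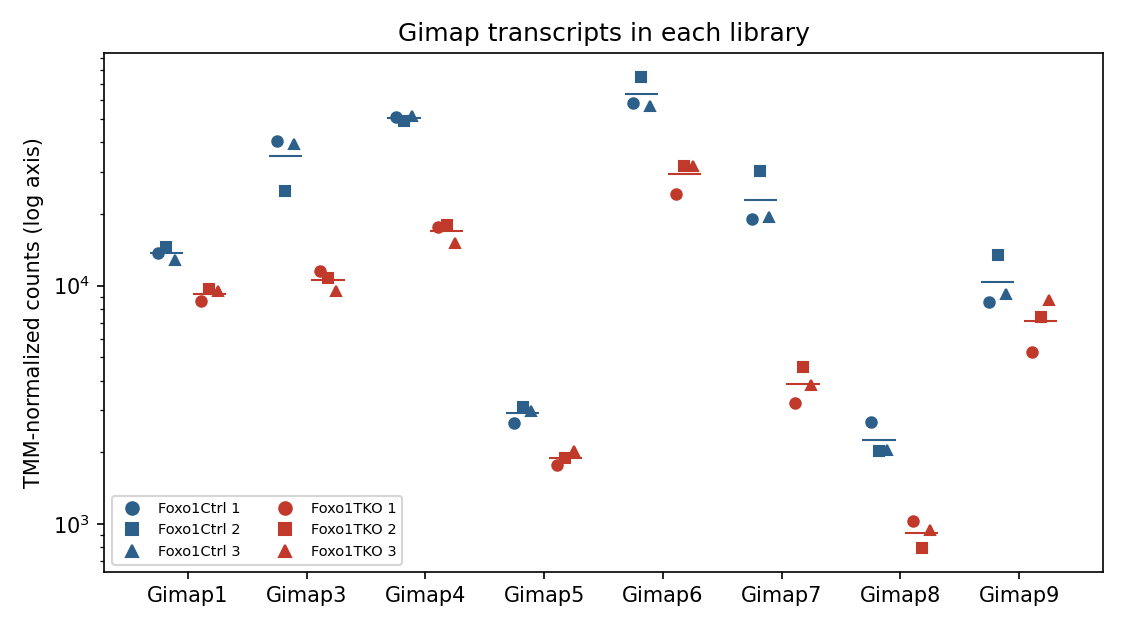
TMM-normalized counts (log axis) of the 8 Gimap genes in the 3 Foxo1Ctrl and 3 Foxo1TKO libraries, one symbol per library and a line at each mean. For Gimap9 the genotypes overlap (Foxo1TKO 3 at 8671 above Foxo1Ctrl 1 at 8496), and for the other 7 genes all Foxo1TKO libraries lie below all Foxo1Ctrl libraries.

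Gimap7 changed most. Its protein hydrolyses GTP and is known to stimulate other Gimap proteins to do so. The gene (chromosome 6, 48718621 to 48724636) had 3207, 4562 and 3824 normalized counts in the Foxo1TKO libraries and 18949, 30347 and 19355 in the Foxo1Ctrl libraries. Foxo1Ctrl 2 was the highest library, yet the lowest Foxo1Ctrl library was still well above the highest Foxo1TKO library. The mean was 5.92-fold lower, a log2 fold change of -2.57 (SE 0.24, edgeR adjusted p = 0.000392), and 2.24% of the genes tested had a log2 fold change as low or lower.

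Gimap3 and Gimap5 are closely related members. Gimap5, which sits on lysosomes, is the member whose loss depletes T cells in rodents, and Gimap3 has been linked to mitochondria and to the amount of Gimap5 protein. Gimap3 (chromosome 6, 48764464 to 48770851) had 11507, 10769 and 9504 normalized counts in the Foxo1TKO libraries and 40268, 25026 and 39122 in the Foxo1Ctrl libraries. Here Foxo1Ctrl 2 was the lowest of its genotype, still more than any Foxo1TKO library. The mean was 3.29-fold lower (log2 fold change -1.72, SE 0.21, edgeR adjusted p = 0.00132).

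Gimap5 (chromosome 6, 48746197 to 48754210) fell less. It had 1770, 1898 and 2029 normalized counts in the Foxo1TKO libraries and 2659, 3099 and 2987 in the Foxo1Ctrl libraries. Its libraries were close to each other within each genotype, and the genotypes did not overlap. The log2 fold change was -0.62 (SE 0.14, edgeR adjusted p = 0.0154), a 1.53-fold difference that lies just past the limit of 1.5. The call was lost when Foxo1TKO 1 (adjusted p = 0.0553), Foxo1TKO 2 (0.0849) or Foxo1Ctrl 3 (0.0541) was left out, and when Foxo1Ctrl 2 was left out because the fold then fell under the limit (log2 fold change -0.57). Of the stretches of 50 bases in the transcripts of Gimap3, 7.52% also occur in those of Gimap5, so reads of this part are divided between both genes by estimate.

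The ratio of Gimap3 to Gimap5, in TPM, was 2.85, 2.38 and 2.00 in the Foxo1TKO libraries and 5.75, 2.93 and 5.05 in the Foxo1Ctrl libraries. The genotypes did not overlap, but Foxo1Ctrl 2 came close to Foxo1TKO 1.

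Gimap1 (chromosome 6, 48739054 to 48743795), the member required by mature lymphocytes, was lower by less than the limit. It had 8595, 9645 and 9494 normalized counts in the Foxo1TKO libraries and 13677, 14526 and 12848 in the Foxo1Ctrl libraries. The libraries of a genotype were near each other and the genotypes did not overlap. With a log2 fold change of -0.57 (SE 0.14, edgeR adjusted p = 0.0206) the difference passed the p threshold, while the 1.48-fold change stayed under 1.5. Gimap1 is the least certain member in its counting, as 32.5% of its stretches of 50 bases also lie, on the opposite strand, in Gimap1os, and the sources do not say whether reads were counted by strand. Gimap1os had 1240, 1743 and 2140 normalized counts in the Foxo1TKO libraries and 4301, 8329 and 4639 in the Foxo1Ctrl libraries, with no overlap. Its log2 fold change was -1.75 (SE 0.31, edgeR adjusted p = 0.00555). With the counts of both genes added, an unplanned fit, the log2 fold change of Gimap1 was -0.83 and the gene was called lower. Without Foxo1Ctrl 3 the gene was also called lower (-0.62, adjusted p = 0.0474). Its edgeR adjusted p rose over 0.05 without Foxo1TKO 1 (0.0730), Foxo1TKO 2 (0.0898), Foxo1TKO 3 (0.0708) or Foxo1Ctrl 1 (0.0699). With a correction for GC content it was 0.0552.

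Gimap4, which has been linked to T cell death and to cytokine secretion, and Gimap6, which binds the autophagy protein Gabarapl2, were the most abundant members. Gimap4 (chromosome 6, 48684549 to 48692060) had 17656, 17953 and 15084 normalized counts in the Foxo1TKO libraries and 51099, 49009 and 51256 in the Foxo1Ctrl libraries. This was the member with the tightest Foxo1Ctrl values, and the genotypes were well apart. Its mean was 2.99-fold lower (log2 fold change -1.58, SE 0.15, edgeR adjusted p = 0.000367).

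Gimap6 (chromosome 6, 48701582 to 48708225) had 24089, 31858 and 31839 normalized counts in the Foxo1TKO libraries and 58017, 75157 and 56652 in the Foxo1Ctrl libraries. Foxo1TKO 1 was the lowest and Foxo1Ctrl 2 the highest library, and the genotypes did not overlap. The mean was 2.16-fold lower (log2 fold change -1.11, SE 0.19, edgeR adjusted p = 0.00512).

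Gimap8, the largest of these proteins, with several GTP-binding domains, was the least abundant member. Its gene (chromosome 6, 48647234 to 48660875) had 1027, 792 and 948 normalized counts in the Foxo1TKO libraries and 2682, 2031 and 2054 in the Foxo1Ctrl libraries. All Foxo1Ctrl libraries were well above the Foxo1TKO libraries. The mean was 2.44-fold lower (log2 fold change -1.29, SE 0.18, edgeR adjusted p = 0.0020).

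Gimap9 (chromosome 6, 48676129 to 48679114) was the only member whose genotypes overlapped in normalized counts. It had 5244, 7372 and 8671 in the Foxo1TKO libraries and 8496, 13390 and 9232 in the Foxo1Ctrl libraries. Foxo1TKO 3 lay above Foxo1Ctrl 1, and most of the distance between the means came from the low value of Foxo1TKO 1 and the high value of Foxo1Ctrl 2. The log2 fold change of -0.55 (SE 0.24, 95% interval -1.11 to 0.017, edgeR adjusted p = 0.147) did not pass the threshold. The interval holds changes nearly as large as that of Gimap6. Without Foxo1TKO 1 and Foxo1Ctrl 2 the log2 fold change of Gimap9 was -0.14 (SE 0.11).

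**Figure D2:**
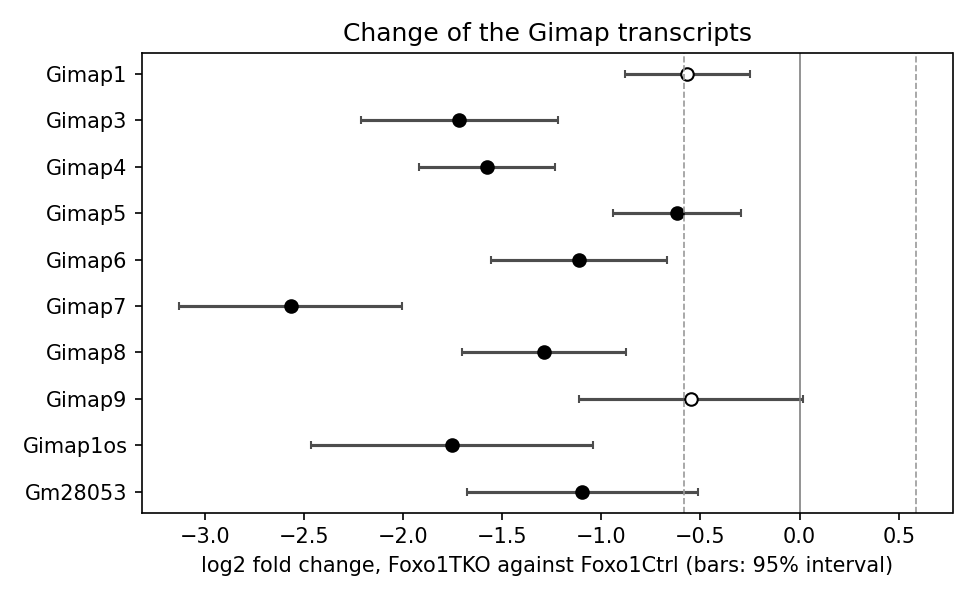
Log2 fold change of Foxo1TKO against Foxo1Ctrl (points) with its 95% interval (bars) for the 8 Gimap genes, Gimap1os and Gm28053; filled points were called lower, open points were not, and dashed lines mark the 1.5-fold limit. Gimap7 lies lowest at -2.57, and the interval of Gimap9 reaches past 0.

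With Foxo1TKO 1 and Foxo1Ctrl 2 both left out, a fit chosen after the data were seen, 5 of the 8 members were called lower, where 17.3% of all genes tested were. Gimap7 (log2 fold change -2.19), Gimap3 (-1.97), Gimap4 (-1.63), Gimap8 (-1.44) and Gimap6 (-0.85) stayed past both limits. Gimap5 (-0.52) fell under the fold limit, Gimap1 (-0.47) stayed under it, and Gimap9 had a log2 fold change of -0.14. The difference in Gimap9 thus shrank without the 2 libraries that stand apart, and that of Gimap3 grew.

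Since the members did not fall by the same factor, their order by TPM was not the same in the genotypes. In Foxo1Ctrl cells Gimap6 was highest with a mean of 2702 ± 192 TPM (SD, n = 3), followed by Gimap4 (2342 ± 231), Gimap7 (1328 ± 213), Gimap3 (1159 ± 380), Gimap1 (693 ± 46.0), Gimap9 (600.3 ± 87.2), Gimap5 (252 ± 13.7) and Gimap8 (49.6 ± 12.1). Among neighbours in this order, Gimap7 and Gimap3, Gimap3 and Gimap1, and Gimap1 and Gimap9 overlapped between libraries. In Foxo1TKO cells the order was Gimap6 (1296 ± 117), Gimap4 (786 ± 113), Gimap1 (487 ± 21.8), Gimap9 (428 ± 68.0), Gimap3 (361 ± 65.0), Gimap7 (236 ± 33.6), Gimap5 (149.8 ± 1.05) and Gimap8 (21.0 ± 4.13). There, Gimap1 and Gimap9 overlapped, as did Gimap9 and Gimap3. By its mean, Gimap7 thus held place 3 of 8 in Foxo1Ctrl cells and place 6 in Foxo1TKO cells. Its place above Gimap3 in Foxo1Ctrl cells came from Foxo1Ctrl 2 (1573 against 721 TPM). In Foxo1Ctrl 1 (1190 against 1401) and Foxo1Ctrl 3 (1220 against 1355) Gimap7 lay below Gimap3. In this unit Gimap9 also separated the genotypes, with 353, 446 and 485 TPM in the Foxo1TKO libraries and 530, 698 and 573 in the Foxo1Ctrl libraries.

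Among all genes of a library, Gimap6 ranked between 36 and 40 by TPM in Foxo1Ctrl cells and between 91 and 114 in Foxo1TKO cells. Gimap7 ranked between 80 and 119 in Foxo1Ctrl cells and between 653 and 821 in Foxo1TKO cells. Gimap8 ranked between 2426 and 3052 in Foxo1Ctrl cells and between 4583 and 5221 in Foxo1TKO cells. The family thus ran from the most abundant transcripts of these cells to middling ones, in both genotypes.

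**Figure D3:**
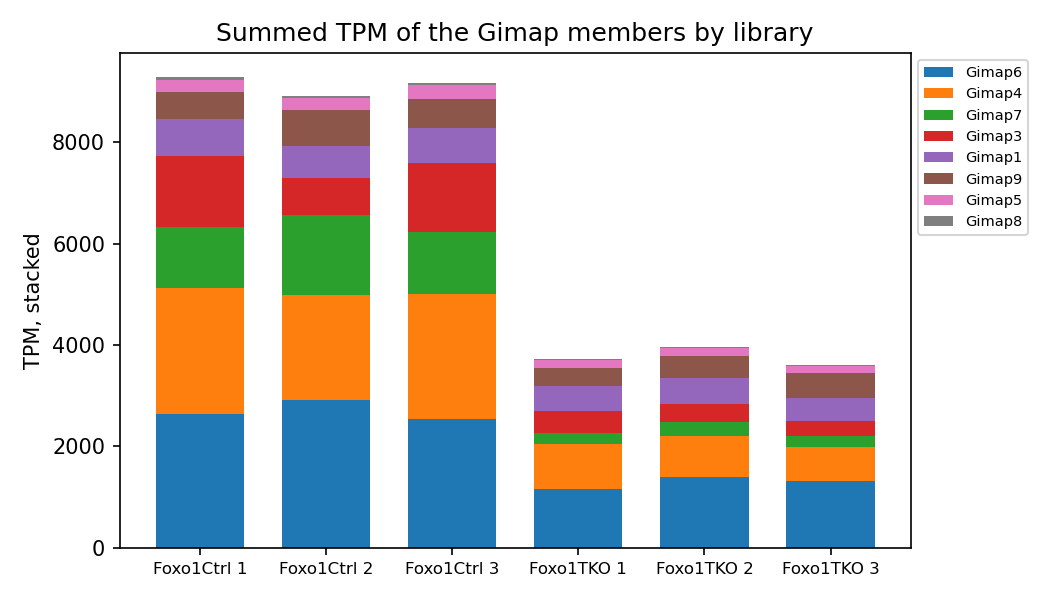
TPM of the 8 Gimap genes stacked for each library (Foxo1Ctrl 1 to 3, then Foxo1TKO 1 to 3), one colour per gene. The stacks reach 8914 to 9291 TPM in the Foxo1Ctrl libraries and 3611 to 3960 in the Foxo1TKO libraries, and all 8 parts are smaller on average in the Foxo1TKO libraries.

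The make-up of the family's transcripts shifted with the genotype. Gimap7 held 12.8%, 17.6% and 13.3% of the summed TPM in the Foxo1Ctrl libraries and 5.78%, 6.93% and 6.03% in the Foxo1TKO libraries. Gimap1 went the other way, from 7.94%, 7.24% and 7.60% in the Foxo1Ctrl libraries to 13.4%, 12.6% and 12.8% in the Foxo1TKO libraries. Gimap9 (mean 6.59% against 11.4%) and Gimap5 (2.77% against 3.99%) also took a higher share in each Foxo1TKO library than in any Foxo1Ctrl library. The shares of Gimap3, Gimap4, Gimap6 and Gimap8 overlapped between the genotypes. A share within a sum shows unequal change and not that a gene rose, since all 8 means were lower in Foxo1TKO cells.

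Ratios between single members within a library show the same. Gimap7 to Gimap9, neither of which shares stretches of 50 bases with the other, was 0.610, 0.616 and 0.449 in TPM in the Foxo1TKO libraries and 2.24, 2.25 and 2.13 in the Foxo1Ctrl libraries. This ratio was nearly constant within Foxo1Ctrl cells, including Foxo1Ctrl 2, and 3.96-fold lower in Foxo1TKO cells. Gimap7 to Gimap6 was 0.184, 0.196 and 0.165 in the Foxo1TKO libraries and 0.451, 0.539 and 0.479 in the Foxo1Ctrl libraries, again without overlap. Gimap4 to Gimap6 overlapped between the genotypes (0.613 ± 0.130 against 0.873 ± 0.141, SD, n = 3).

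The effective length of a gene, which RSEM computes from the mixture of its isoforms, moved with the genotype for Gimap5 alone of the 8 members. It was 862, 828 and 839 bases in the Foxo1TKO libraries and 747, 716 and 757 bases in the Foxo1Ctrl libraries, without overlap, so that the estimated isoforms of Gimap5 were longer on average in Foxo1TKO cells. The read-through gene Gm28053, which shares exons with Gimap5, had 122, 140 and 187 normalized counts in the Foxo1TKO libraries and 253, 381 and 327 in the Foxo1Ctrl libraries. Its log2 fold change was -1.10 (SE 0.25, edgeR adjusted p = 0.0167). The effective length of Gm28053 moved the other way from that of Gimap5, also without overlap. It was 278, 321 and 304 bases in the Foxo1TKO libraries and 373, 396 and 371 bases in the Foxo1Ctrl libraries. With the effective lengths taken into the fit, the log2 fold change of Gimap5 was -0.81, and with the counts of Gm28053 added to its own it was -0.66. These lengths rest on how RSEM divided reads between annotated isoforms, and no reads were examined.

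Genes around the cluster were compared as well. Within 500 kb of the cluster, 17 genes outside it were tested. Of these, 1 was called lower and 1 higher, where 11.8% and 11.1% of all genes tested were. The median log2 fold change of the 17 was -0.35. The one called lower was Gpnmb, which encodes a membrane glycoprotein of macrophages and other cells, with 60.9, 36.9 and 21.5 normalized counts in the Foxo1TKO libraries and 1140, 851 and 780.0 in the Foxo1Ctrl libraries (log2 fold change -4.49, edgeR adjusted p = 0.000237). The one called higher was Zfp862-ps, a pseudogene and so of uncertain counting, with 51.9 ± 11.2 normalized counts in Foxo1TKO and 9.11 ± 6.33 in Foxo1Ctrl libraries (SD, n = 3), without overlap. The tested neighbours nearest to the cluster, AI854703 on the side of Gimap8 and Tmem176b on the side of Gimap3, were not called (log2 fold changes of -0.74 and -1.09, edgeR adjusted p of 0.369 and 0.160), and both had few counts. Tmem176b, Tmem176a (-2.03) and Zfp467 (-1.57), outside the cluster and not called, had all Foxo1TKO libraries below all Foxo1Ctrl libraries. Repin1 (1.19), Igf2bp3 (0.73) and Gm10243 (0.61), also outside it and not called, had all Foxo1TKO libraries above all Foxo1Ctrl libraries. Among all genes tested, 21.2% were separated downward in this way and 21.5% upward. Inside the cluster 4 tested genes are no members: Gimap1os and Gm28053 were called lower, and the noncoding genes Gm44226 (log2 fold change -1.67, adjusted p = 0.0575 from the same test) and 4833403J16Rik (-0.76, adjusted p = 0.0887) were not, although in both all Foxo1TKO libraries lay below all Foxo1Ctrl libraries.

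**Figure D4:**
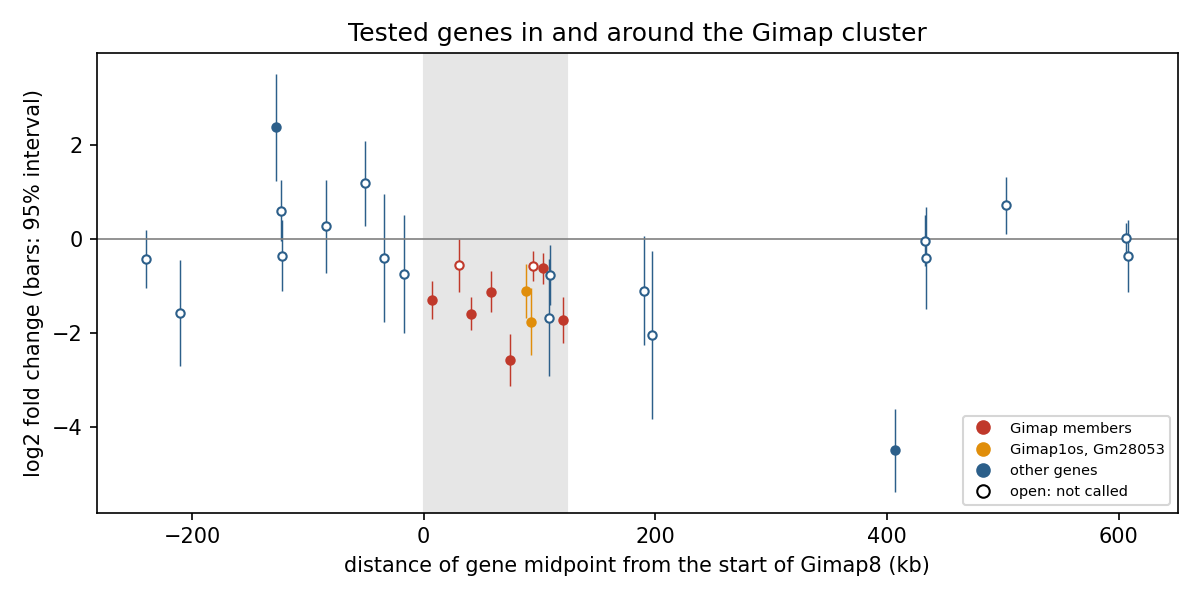
Log2 fold change of Foxo1TKO against Foxo1Ctrl with its 95% interval for every tested gene in and around the Gimap cluster (shaded), placed by the distance of its midpoint from the start of Gimap8 in kb. All points within the shaded area lie below 0, and the lowest point outside it is Gpnmb at -4.49.

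Genes that act with Gimap proteins on survival and autophagy were followed as a list of 9, all of which were tested. Of these, 3 were called lower and 0 higher, where 11.8% and 11.1% of all genes tested were. The median log2 fold change of the list was -0.19. The count of higher genes was also 0 by edgeR at an unadjusted p under 0.05, by DESeq2 and by limma-voom. Bcl2, which holds back death by the mitochondrial route, had 1395, 1647 and 1631 normalized counts in the Foxo1TKO libraries and 2738, 3751 and 3125 in the Foxo1Ctrl libraries (log2 fold change -1.04, edgeR adjusted p = 0.00372). Mcl1, of the same function, had 2163, 2744 and 2722 against 4199, 5399 and 3977 (-0.83, adjusted p = 0.0125). Gabarapl2, the autophagy protein that Gimap6 binds, had 2625, 2896 and 2711 against 4414, 5342 and 4481 (-0.79, adjusted p = 0.0062). None of these 3 overlapped between the genotypes. The death-promoting genes Bax, Bak1, Bad and Bcl2l11, the protective gene Bcl2l1 and the kinase gene Gsk3b were not called, and among them Bax alone had separate genotypes, with 3050, 3022 and 3188 normalized counts in the Foxo1TKO libraries and 2505, 2758 and 2804 in the Foxo1Ctrl libraries.

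Genes known to depend on Foxo1 in naive T cells (Il7r, Klf2, S1pr1, Ccr7, Tcf7 and Bach2) set a scale for the family. Of these 6, 5 were called lower and 0 higher (11.8% and 11.1% over all genes tested). Their median log2 fold change was -2.37, against -1.20 for the Gimap members. The single values were spread widely: Klf2 -7.46, S1pr1 -4.97, Il7r -3.49, Ccr7 -1.25, Bach2 -0.99 and Tcf7 -0.72. S1pr1, the receptor by which T cells leave lymph nodes, had 265, 288 and 268 normalized counts in the Foxo1TKO libraries and 10261, 5682 and 9806 in the Foxo1Ctrl libraries. As in Gimap3, Foxo1Ctrl 2 was the lowest of its genotype. Tcf7, a transcription factor of naive T cells, overlapped between the genotypes and was not called by edgeR, whereas DESeq2 called all 6 genes lower. The count of higher genes was 0 at an unadjusted p under 0.05 and by DESeq2 and limma-voom as well.

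The markers of other cells that the cultures could hold were compared beside these results. The 12 T cell markers, among them Cd3e and Cd3d, summed to between 12157 and 13045 TPM in Foxo1TKO and between 13373 and 13607 TPM in Foxo1Ctrl libraries, and 1 of the 12, Cd28, was called lower, with 0 higher. B cells also express Gimap genes. Of their 7 markers, led by Cd79a, 6 were tested and 4 called lower, where 11.8% of all genes tested were. The 7 summed to between 6.81 and 9.77 TPM in Foxo1TKO and between 22.0 and 27.9 TPM in Foxo1Ctrl libraries. These sums lie far under those of the Gimap genes, and their part in the result was not tested. The macrophage markers summed to at most 6.03 TPM, those of dendritic cells to at most 3.74, those of NK cells to at most 4.45 and those of neutrophils to at most 5.47 in any library, and erythroid ones to at most 41.1. Of these, 2 genes each were tested for macrophages, dendritic, NK and erythroid cells and 0 for neutrophils. By edgeR, DESeq2 and limma-voom 0 were called in either direction, and 1 macrophage gene, Cd68, was higher at an unadjusted p under 0.05 (edgeR). Of 6 endothelial markers 5, with Cdh5 and Kdr among them, were at 0 in all libraries, and Pecam1, which T cells express too, was called lower. Of 10 proliferation genes 4 (Top2a, Cdk1, Mcm5 and Pcna) were called higher and 0 lower in Foxo1TKO cells, where 11.1% and 11.8% of all genes tested were. The median log2 fold change of the 10 was 0.64. Mki67 (-0.12), Birc5 (-0.41), Ccnb1 (0.14), Ccna2 (0.34), Aurkb (0.48) and Mcm2 (1.47) were not called. By dye dilution the paper found less proliferation of Foxo1-deficient cells in such cultures. Transcripts of these genes are no count of divisions, and their part in the result was not tested. The counts of 0 for higher T cell markers and for lower proliferation genes were also 0 at an unadjusted p under 0.05 and by DESeq2 and limma-voom.

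The genes whose pattern over the 6 libraries was most like the mean of the members were Sp100, Slc25a33, Gm30054, Ssbp2 and Dock11, by the Pearson correlation of log2 values, at lowest 0.999 for these 5 genes, among the 9227 genes whose mean reached 100 normalized counts. Those most opposite were Praf2, Cct7, Fhl2, Gramd1b and Tnfsf14. As the genotypes are far apart, a correlation over 6 libraries mostly restates the difference between them, and 22.4% of the genes had one beyond 0.9 in either direction. Sp100, a protein of nuclear bodies, had 9430, 10095 and 10147 normalized counts in the Foxo1TKO libraries and 19596, 21289 and 19551 in the Foxo1Ctrl libraries. Tnfsf14, a cytokine of the TNF family, had 892, 787 and 715 against 54.8, 52.6 and 69.8.

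Within a genotype the members did not move together, and in the 2 libraries that stand apart they fell into opposing sets. Gimap6, Gimap7, Gimap9 and, more weakly, Gimap1 and Gimap5 were all below their genotype's mean in Foxo1TKO 1 and above it in Foxo1Ctrl 2. Gimap3, Gimap8 and, more weakly, Gimap4 were above their mean in Foxo1TKO 1 and below it in Foxo1Ctrl 2. For Gimap9 the deviations were -0.41 in Foxo1TKO 1 and 0.40 in Foxo1Ctrl 2 on the log2 scale, and for Gimap3 they were 0.12 and -0.44. Over the 6 libraries, after the genotype means were taken off, Gimap6 and Gimap9 had a correlation of 0.96 and Gimap3 and Gimap9 one of -0.87. The set of Gimap3, Gimap4 and Gimap8 was loose. Gimap3 had a correlation of 0.54 with Gimap4 and of 0.44 with Gimap8, while Gimap4 and Gimap8 had one of -0.09. These values are given as a description of libraries that share the 2 outlying ones. Base composition moved with the libraries too. Over 13679 genes, deviation and the GC content of the longest transcript had a Spearman correlation of 0.37 in Foxo1TKO 1 and of -0.39 in Foxo1Ctrl 2, of 0.35 in Foxo1Ctrl 1, and between -0.26 and 0.25 in the others. The part of base composition in the opposing sets was not tested. With a correction for GC content, added after the data were seen, the same number of members (6) was called lower, Gimap7 had a log2 fold change of -2.56, and Gimap9 one of -0.48 (edgeR adjusted p = 0.0800).

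**Figure D5:**
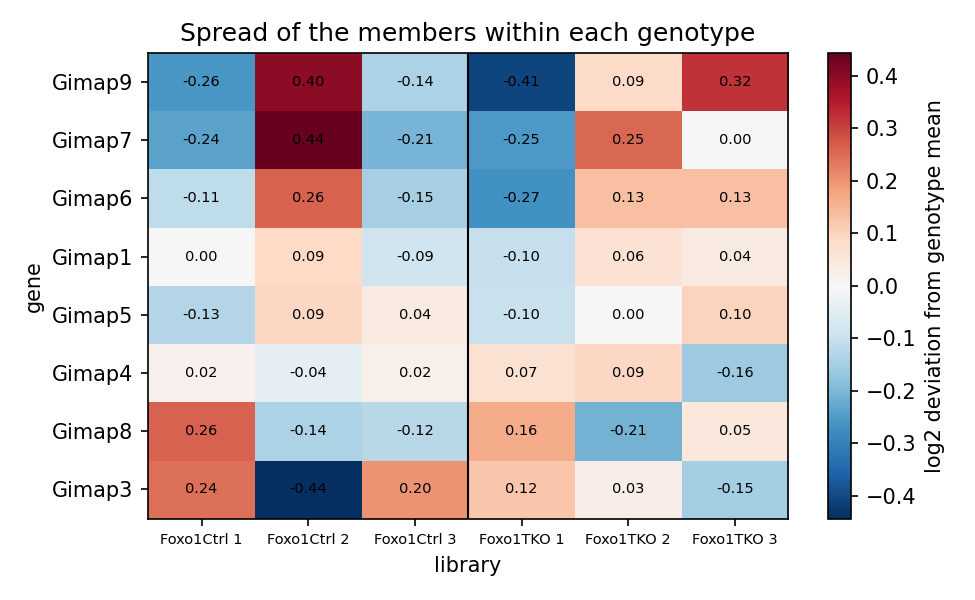
Deviation of each Gimap gene from the mean of its genotype, on the log2 scale, in the 3 Foxo1Ctrl libraries (left) and the 3 Foxo1TKO libraries (right), red above and blue below the mean. Foxo1Ctrl 2 and Foxo1TKO 1 show opposite patterns, with Gimap9 at 0.40 and -0.41 and Gimap3 at -0.44 and 0.12.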

How the data were processed

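RNA-seq libraries of 3 Foxo1TKO and 3 Foxo1Ctrl cultures were assigned to genotype by their labels. The authors aligned reads with STAR 2.7.6a to GRCm38, kept those mapping uniquely or to a few loci, and deposited RSEM 1.3.1 expected counts, TPM and effective length per gene. A further table deposited by the authors holds normalized signal, made with DESeq2: counts divided by size factors and by relative effective length. Expected counts were rounded and tested with edgeR 4.0.16 (TMM, glmQLFit, glmQLFTest, prior count 1) in R 4.3.3, genotype being the only term, with Benjamini-Hochberg adjustment over 13691 genes. Alternatives were DESeq2 1.42.0, limma 3.58.1, other scalings, filters and libraries left out. The test was tried on simulated data. Positions and shared stretches of 50 bases came from GENCODE (release M21), promoters from RefSeq (GRCm38.p6). No table of protein sequences was used here. The genes described are all members, other Gimap genes, Foxo1, tested genes within 500 kb, the lists of survival genes, Foxo1 targets and markers, and the 5 genes most and least correlated with the members. Members and lists were chosen with earlier results of these data known. The main fit did not pair the libraries by replicate number, and the sources used here do not say whether they were paired. Some genes of the lists are not reported here and were left out of their counts.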

Additional observations from a re-analysis of the deposited data

How the results depend on the processing

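No member changed direction under any of the 21 alternatives, and between 5 and 7 members were called lower (7 with an adjusted p as the only limit, where Gimap1 passed, and with Gimap1os added to Gimap1). Gimap3, Gimap4, Gimap6, Gimap7 and Gimap8 stayed called under all of them, and Gimap9 under none, with adjusted p from 0.0800 to 0.353. Leaving out 1 library moved the log2 fold change of Gimap5 between -0.71 and -0.57 and that of Gimap1 between -0.62 and -0.52. Gimap5 was not called without both libraries that stand apart (-0.52), and Gimap1 was called with Gimap1os added (-0.83). With 1 library left out the edgeR adjusted p of Gimap1 reached 0.0898. Over all genes, leaving out 1 library gave between 933 and 1493 genes called lower and between 657 and 1672 called higher, against 1619 and 1525: without Foxo1TKO 2 they were 933 and 657, without Foxo1Ctrl 1 they were 966 and 882, without Foxo1Ctrl 3 1041 were lower, and without Foxo1TKO 3 925 were higher, with between 13236 and 13354 genes tested in place of 13691. Such a fit assumes that the remaining libraries vary alike. The summed family was lower by a log2 value of -1.28 in TPM, -1.34 in the deposited signal and -1.33 in TMM-normalized counts, and between -1.32 and -1.25 with 1 library left out. The replicate numbers are shared by the genotypes, and the paper compared its cytometry values of such cultures as pairs by experiment. Deviations of libraries with the same number had correlations of 0.43, 0.20 and -0.11, and those with different numbers between -0.45 and 0.30. With 3 libraries per genotype these values cannot decide whether the libraries were paired. The main fit had genotype as its only term. With the replicate block 6 members were called lower, and 1661 genes lower and 1657 higher over all genes, and Gimap9 had an adjusted p of 0.0824 (edgeR's quasi-likelihood test). Depth did not limit the members, whose lowest count was 883.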
